A study of Mus musculus with 6 samples.

Results

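Complement is the part of innate immunity that tags cells, synapses and debris for removal. In the classical pathway C1q binds a target, C4 and C2 are then cleaved, and their fragments form the enzyme that cleaves C3. Small fragments released on the way act on receptors of myeloid cells, while inhibitors on cells and in plasma hold the cascade back. In brain, microglia are the known source of C1q, and complement has been tied to the removal of synapses during development and in models of neurodegeneration.

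The 9 complement genes described here were chosen by symbol and were all found among the 33457 features of each deposited matrix. C1qa, C1qb and C1qc encode the chains of C1q. C4b and C3 encode the central proteins C4 and C3, C3ar1 and C5ar1 encode the receptors of the C3a and C5a fragments, Serping1 encodes the C1 inhibitor, and Cd55 encodes decay-accelerating factor, which breaks up C3 convertases on membranes. A further 47 complement genes were measured for comparison.

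RNA was counted in single nuclei from B6 mice of 9 months, with 1 library in each of 6 groups. TAFE4_tam and TAFE4_oil carried P301S tau, APOE4 fl/fl and Aldh1la1CreERT, as the labels spell that Cre, and had been given tamoxifen or oil. TAFE3_tam and TAFE3_oil carried the same with APOE3 fl/fl in place of APOE4 fl/fl. FE4 (APOE4 fl/fl) and FE3 (APOE3 fl/fl) had neither tau transgene nor Cre and no treatment. All 6 groups therefore had floxed human APOE. The cell type in which Cre acts is not spelled out in the labels, and the sources used here do not give the number of animals behind a library. Titles name hippocampus, the protocol names the left hemisphere, and between 605 and 3354 nuclei per library carried the markers of dentate granule neurons. These neurons made up a larger share of both FE libraries (FE3 23.3%, FE4 23.4%) than of the TAFE libraries. Their share was 6.94% for TAFE3_oil, 5.18% for TAFE4_oil, 11.3% for TAFE3_tam and 11.8% for TAFE4_tam. An excitatory cluster with Rorb and Cux2 among its top genes was smallest in FE4 (113 nuclei) and largest in TAFE4_oil (2879 nuclei). The neuron mix thus differed between the compared groups, and its part in the comparisons was not tested. TAFE oil libraries differ from FE libraries in tau, Cre and oil together, tamoxifen comes together with the deletion, and several comparisons share a library.

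The libraries held 39050503 to 49083723 UMIs (unique transcript molecules) over 14762 to 18171 barcodes, and 9881 to 14349 nuclei per library were used. Pairs of libraries shared 65 to 83 barcodes. Human APOE, the targeted gene, stood at 5238 CPM (counts scaled to the same total of UMIs in every class and library) in TAFE4_tam astrocytes and 19433 CPM in TAFE4_oil astrocytes, against 13118 CPM in FE4 astrocytes. It stood at 5219 CPM in TAFE3_tam astrocytes and 16436 CPM in TAFE3_oil astrocytes, against 12025 CPM in FE3 astrocytes. APOE was thus lower in astrocytes of both tamoxifen libraries than in those given oil. Median mitochondrial shares ranged from 0.625% (FE4) to 3.23% (FE3) of UMIs. A cluster led by liver genes was found almost entirely in TAFE4_tam, with 43 of its 52 nuclei, and 6 liver genes summed to 77.7 CPM over all nuclei of that library, against 0.148 to 9.15 CPM in the others.

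With 1 library in a group there is no test between animals. Levels are CPM with exact Poisson 95% intervals, shares of nuclei have exact Clopper-Pearson 95% intervals, and ratios of CPM within a class have exact conditional binomial 95% intervals, all of which cover counting error only. A gene counts as higher or lower in a comparison when its log2 ratio is at least 1 in size. CPM of different genes are not compared, since transcripts differ in length and capture, but C1q is also given per UMI of microglial markers.

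C1qa, C1qb and C1qc lie next to each other on the minus strand of chromosome 4 (mm10), at chr4:136895917-136898803, chr4:136880129-136886187 and chr4:136889804-136893065. C4b lies at chr17:34728380-34743882, beside its near-identical copy C4a at chr17:34809092-34823464, and C3 lies at chr17:57203970-57228136 on the same chromosome. Serping1 is at chr2:84765387-84775444, C3ar1 at chr6:122847138-122856161, C5ar1 at chr7:16246743-16259540 and Cd55 at chr1:130439027-130462744, all on the minus strand. RefSeq promoter sequences (GRCm38.p6, 250 bases before to 50 bases after the start) were at hand for 6 of the 9 genes, namely C1qb, C1qc, C3, C3ar1, C5ar1 and Cd55. C1qa, C4b and Serping1 had no entry. Each promoter was searched on both strands for GAGGAA, the core bound by the myeloid factor PU.1, and for TTGCNNAA, a C/EBP-type motif. GAGGAA was found in 28.3% of 32851 mouse promoters of the same length and TTGCNNAA in 10.8%. The promoters of C1qb and C1qc are shown because these chains were measured together in microglia, and that of C3 because C3 was counted in tau libraries and hardly in the others. Capitals mark the motif match, each run reads 5′ to 3′ on the gene's strand, and a match describes letters only.
C1qb, GRCm38.p6 chr4:136886151-136886450, minus strand, GAGGAA beginning at -30: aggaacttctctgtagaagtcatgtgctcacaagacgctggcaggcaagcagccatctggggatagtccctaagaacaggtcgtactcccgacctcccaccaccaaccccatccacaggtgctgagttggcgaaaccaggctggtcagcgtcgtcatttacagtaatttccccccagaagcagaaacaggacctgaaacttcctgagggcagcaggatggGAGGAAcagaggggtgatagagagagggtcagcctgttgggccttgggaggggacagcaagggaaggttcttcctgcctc
C1qc, GRCm38.p6 chr4:136892865-136893164, minus strand, GAGGAA on the other strand (TTCCTC as printed) beginning at -193: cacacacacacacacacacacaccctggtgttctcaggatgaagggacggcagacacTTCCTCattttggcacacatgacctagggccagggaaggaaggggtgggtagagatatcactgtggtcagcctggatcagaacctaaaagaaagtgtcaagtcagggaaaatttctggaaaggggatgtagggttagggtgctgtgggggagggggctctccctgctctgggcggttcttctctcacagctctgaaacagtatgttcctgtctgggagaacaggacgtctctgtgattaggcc
C3, GRCm38.p6 chr17:57228087-57228386, minus strand, TTGCNNAA beginning at -45: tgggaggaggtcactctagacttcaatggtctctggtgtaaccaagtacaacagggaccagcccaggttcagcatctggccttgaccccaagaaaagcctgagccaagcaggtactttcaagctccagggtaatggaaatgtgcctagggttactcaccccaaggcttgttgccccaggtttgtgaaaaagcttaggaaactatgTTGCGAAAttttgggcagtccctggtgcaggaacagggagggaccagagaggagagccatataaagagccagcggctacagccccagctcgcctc
No GAGGAA was found in the windows of C3, C3ar1, C5ar1 or Cd55, and no TTGCNNAA in those of C1qb, C1qc, C3ar1, C5ar1 or Cd55. No promoter held both motifs, so no match overlapped another motif.

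C4b, the mouse gene of complement C4, was higher in oligodendrocytes of all 4 tau libraries than in those of both FE libraries. In oligodendrocytes C4b stood at 1339 CPM in TAFE4_tam, 1084 CPM in TAFE4_oil, 102 CPM in FE4, 827 CPM in TAFE3_tam, 792 CPM in TAFE3_oil and 69.8 CPM in FE3. The tau and FE levels were far apart, and the interval of the lowest tau library, 734 to 853 CPM in TAFE3_oil, began well above the interval of the highest FE library, 87.3 to 119 CPM in FE4. The log2 ratio was 3.41 (3.17 to 3.65) for TAFE4_oil against FE4 and 3.50 (3.06 to 3.98) for TAFE3_oil against FE3. Between APOE alleles the difference was smaller. The log2 ratio was 0.69 (0.58 to 0.81) for TAFE4_tam against TAFE3_tam, 0.45 (0.32 to 0.59) for TAFE4_oil against TAFE3_oil and 0.55 (0.06 to 1.07) for FE4 against FE3, so C4b was on the higher side in APOE4 in each pair of libraries.

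**Figure D1:**
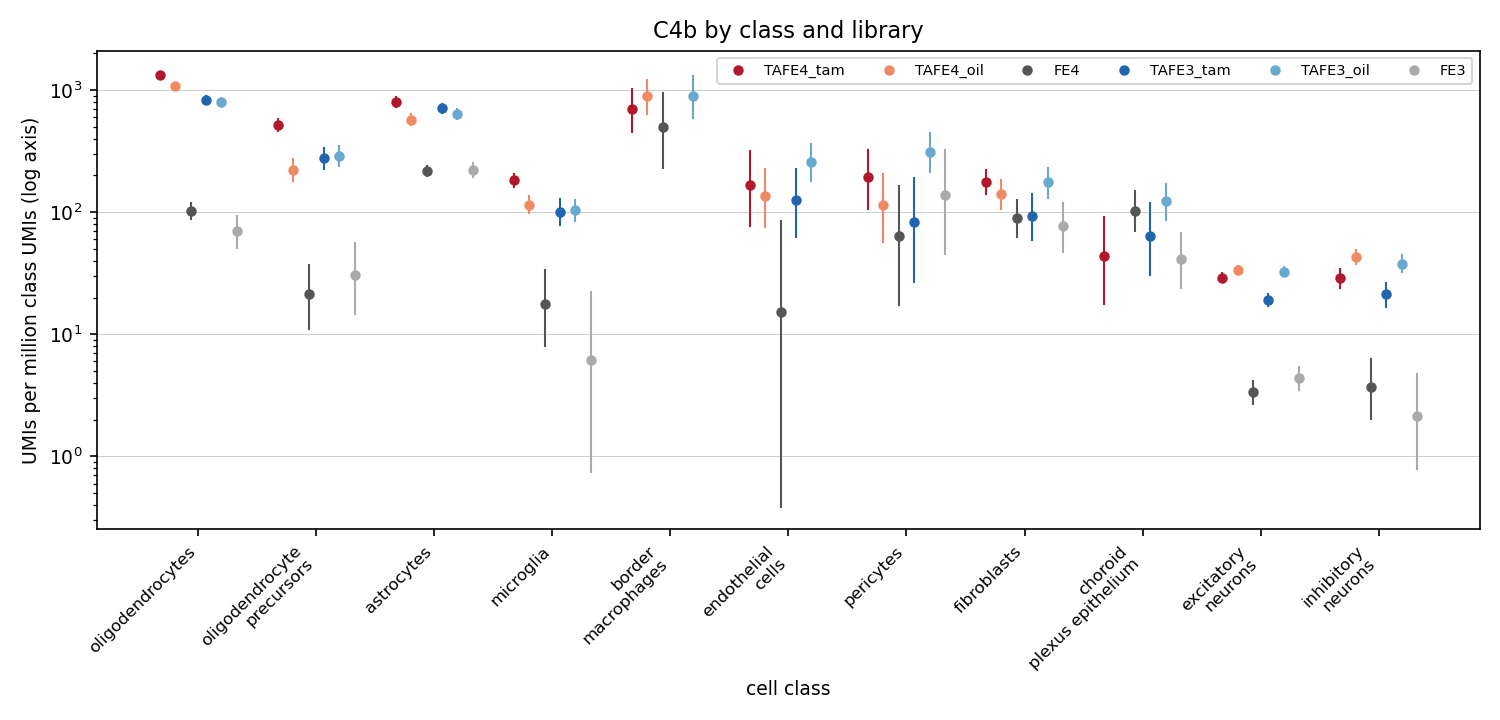
C4b level (CPM, log axis) in each cell class and library, with points for CPM and bars for exact Poisson 95% intervals; classes with under 20 nuclei or no C4b UMI in a library are not drawn. Oligodendrocytes reached 792 to 1339 CPM in tau libraries, against 69.8 and 102 CPM in FE libraries, while excitatory and inhibitory neurons stood at 42.8 CPM or below.

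More oligodendrocyte nuclei held C4b in tau libraries, and the nuclei with it held more of it. A C4b UMI was found in 61.2% of oligodendrocyte nuclei in TAFE4_tam, 61.0% in TAFE4_oil, 7.50% in FE4, 43.4% in TAFE3_tam, 46.6% in TAFE3_oil and 5.48% in FE3. In excitatory neurons, which are deeper, the shares were 8.76% in TAFE4_tam, 10.4% in TAFE4_oil, 1.01% in FE4, 6.03% in TAFE3_tam, 9.93% in TAFE3_oil and 1.26% in FE3. The share in oligodendrocytes thus lay above that in neurons in all 6 libraries, although median depth was 853 to 1070.5 UMIs in oligodendrocyte nuclei and 2578.5 to 3028.5 UMIs in excitatory neurons. Thinned to 1000 UMIs a nucleus, with shallower nuclei left out, the oligodendrocyte shares were 64.2% in TAFE4_tam, 59.1% in TAFE4_oil, 6.32% in FE4, 43.7% in TAFE3_tam, 43.6% in TAFE3_oil and 5.63% in FE3. The split between tau and FE libraries was therefore present at equal depth. Nuclei with 3 or more C4b UMIs made up 22.9% (20.9 to 25) of oligodendrocytes in TAFE4_tam, 19.9% (17.3 to 22.8) in TAFE4_oil and 0.227% (0.0619 to 0.581) in FE4. They made up 11.5% (9.47 to 13.8) in TAFE3_tam, 11.9% (9.62 to 14.4) in TAFE3_oil and 0.161% (0.00408 to 0.895) in FE3. The highest count in a nucleus was 9 to 11 UMIs in the tau libraries and 3 UMIs in each FE library.

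**Figure D2:**
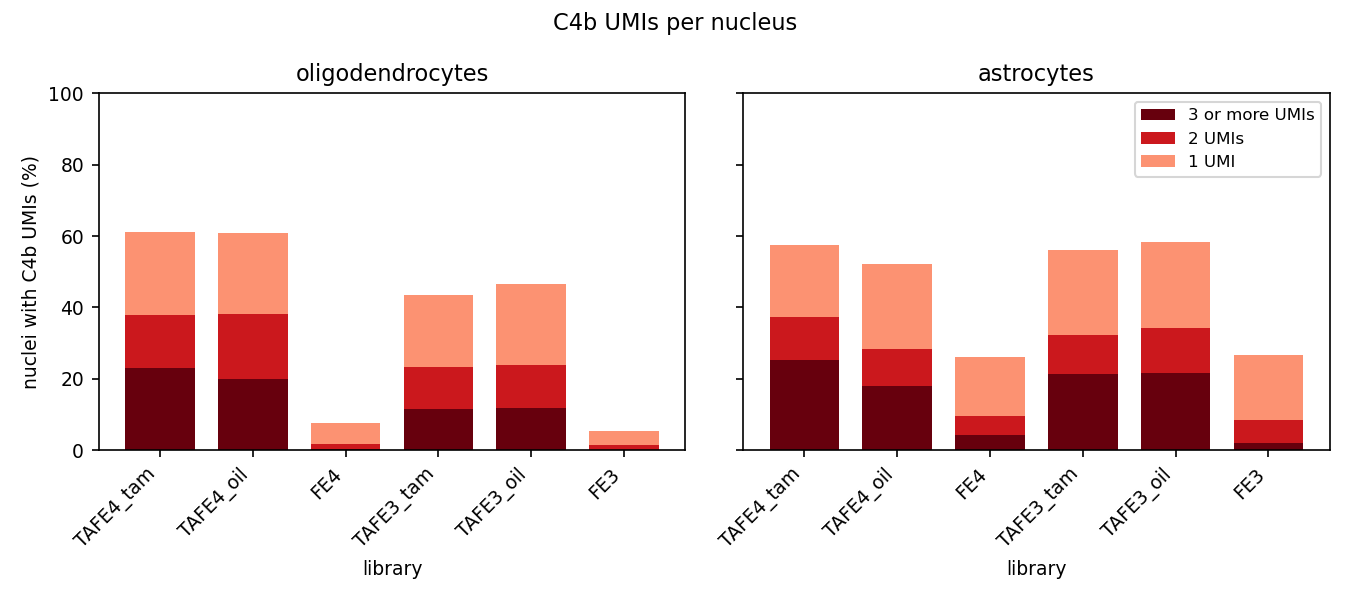
Share of oligodendrocyte nuclei (left) and astrocyte nuclei (right) with 1, 2 or at least 3 C4b UMIs in each library, in percent of nuclei. In oligodendrocytes 43.4% to 61.2% of nuclei in tau libraries held a C4b UMI, against 5.48% and 7.50% in FE libraries; in astrocytes the shares were 52.1% to 58.4% and 26.2% to 26.6%.

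Astrocytes, which already held C4b without tau, had a smaller difference. In astrocytes C4b stood at 800 CPM in TAFE4_tam, 574 CPM in TAFE4_oil, 217 CPM in FE4, 707 CPM in TAFE3_tam, 636 CPM in TAFE3_oil and 222 CPM in FE3. The lowest tau level was more than the highest FE level, and the FE levels lay within each other's intervals, 197 to 239 CPM in FE4 and 193 to 255 CPM in FE3. The log2 ratio was 1.4 (1.2 to 1.60) for TAFE4_oil against FE4 and 1.52 (1.28 to 1.76) for TAFE3_oil against FE3. Between alleles it was 0.18 (-0.01 to 0.37) for TAFE4_tam against TAFE3_tam, -0.15 (-0.35 to 0.05) for TAFE4_oil against TAFE3_oil and -0.03 (-0.28 to 0.21) for FE4 against FE3. Each of these intervals includes 0. In each pair of a TAFE oil and an FE library, the interval of the oligodendrocyte ratio lay above that of the astrocyte ratio.

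The order of the classes for C4b differed between tau and FE libraries. Oligodendrocytes stood above astrocytes in TAFE4_tam (1286 to 1393 CPM against 723 to 883 CPM), TAFE4_oil (1022 to 1150 CPM against 517 to 635 CPM) and TAFE3_oil (734 to 853 CPM against 581 to 694 CPM). In TAFE3_tam the intervals of oligodendrocytes (769 to 889 CPM) and astrocytes (646 to 771 CPM) met. In FE4 (87.3 to 119 CPM against 197 to 239 CPM) and FE3 (50.5 to 94.0 CPM against 193 to 255 CPM) oligodendrocytes stood below astrocytes. Oligodendrocytes accounted for 51.3% of all C4b UMIs in TAFE4_tam, 32.7% in TAFE4_oil, 18.9% in FE4, 34.4% in TAFE3_tam, 23.3% in TAFE3_oil and 7.61% in FE3. Astrocytes accounted for 8.31% in TAFE4_tam, 10.9% in TAFE4_oil, 48.1% in FE4, 23.1% in TAFE3_tam, 16.9% in TAFE3_oil and 36.6% in FE3. These shares also move with the number of nuclei in each class.

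Oligodendrocyte precursors, the dividing cells that give rise to oligodendrocytes, followed the same split at lower levels. In precursors C4b stood at 518 CPM in TAFE4_tam, 223 CPM in TAFE4_oil, 21.3 CPM in FE4, 278 CPM in TAFE3_tam, 291 CPM in TAFE3_oil and 30.4 CPM in FE3. The log2 ratio was 3.39 (2.52 to 4.39) for TAFE4_oil against FE4 and 3.26 (2.33 to 4.36) for TAFE3_oil against FE3. Newly formed oligodendrocytes, with 19 to 48 nuclei per library, had 44 C4b UMIs in TAFE4_tam, 21 in TAFE4_oil, 1 in FE4, 14 in TAFE3_tam, 23 in TAFE3_oil and 0 in FE3. The tau libraries again stood above both FE libraries in the UMIs counted.

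Microglia and neurons held less C4b than oligodendrocytes and astrocytes of the same library. In microglia it stood at 182 CPM in TAFE4_tam, 115 CPM in TAFE4_oil, 17.6 CPM in FE4, 101 CPM in TAFE3_tam, 104 CPM in TAFE3_oil and 6.11 CPM (2 UMIs) in FE3. Per nucleus this was 0.182 UMIs in TAFE4_tam, 0.142 in TAFE4_oil, 0.0166 in FE4, 0.113 in TAFE3_tam, 0.117 in TAFE3_oil and 0.0114 in FE3, against 0.0927, 0.112, 0.0103, 0.0627, 0.106 and 0.0126 UMIs in excitatory neurons of the same libraries. Microglial nuclei thus held close to the neuronal amount in TAFE3_oil and FE3. Excitatory neurons stood at 29.2 CPM in TAFE4_tam, 33.4 CPM in TAFE4_oil, 3.37 CPM in FE4, 19 CPM in TAFE3_tam, 32.7 CPM in TAFE3_oil and 4.37 CPM in FE3. The neuronal level was 2.18% to 6.27% of the oligodendrocyte level of its library, and 10 oligodendrocyte markers, summed, were found in neurons at 2.15% to 5.18% of their oligodendrocyte level. By library C4b lay below the markers on this measure in all 4 tau libraries (2.18% against 3.33% in TAFE4_tam), and above them in FE4 (3.30% against 2.15%) and FE3 (6.27% against 3.1%). Neuronal values were higher in tau libraries, but whether neurons expressed C4b and what the source of the neuronal UMIs was were not tested. With the neuronal level taken off, the C4b log2 ratio in oligodendrocytes was 3.41 for TAFE4_oil against FE4, 3.54 for TAFE3_oil against FE3, 0.32 for TAFE4_tam against TAFE4_oil and 0.09 for TAFE3_tam against TAFE3_oil.

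Fibroblasts and border macrophages held C4b with and without tau. Endothelial cells and pericytes of the FE libraries had 1 to 5 C4b UMIs each, from 18 to 63 nuclei. These counts are too few to say whether their level without tau was lower than in fibroblasts. In fibroblasts C4b stood at 178 CPM in TAFE4_tam, 140 CPM in TAFE4_oil, 90.4 CPM in FE4, 93.7 CPM in TAFE3_tam, 176 CPM in TAFE3_oil and 77.1 CPM in FE3. The log2 ratio in fibroblasts was 0.63 (-0.01 to 1.30) for TAFE4_oil against FE4 and 1.19 (0.42 to 2.01) for TAFE3_oil against FE3, both with intervals below those of oligodendrocytes. Endothelial cells had 9 C4b UMIs in TAFE4_tam, 15 in TAFE4_oil, 1 in FE4, 11 in TAFE3_tam, 35 in TAFE3_oil and 3 in FE3. Pericytes had 14 in TAFE4_tam, 11 in TAFE4_oil, 4 in FE4, 5 in TAFE3_tam, 32 in TAFE3_oil and 5 in FE3. In both classes TAFE3_oil was the highest, at 258 CPM (180 to 359) in endothelial cells and 313 CPM (214 to 443) in pericytes. Border macrophages, which lie in the meninges and around vessels, stood at 695 CPM in TAFE4_tam, 887 CPM in TAFE4_oil, 499 CPM in FE4 and 896 CPM in TAFE3_oil, from 21 to 45 nuclei. Their intervals overlapped, and 14 nuclei in TAFE3_tam and 11 in FE3 were too few for a ratio. Choroid plexus epithelium had 3 to 36 C4b UMIs per library, with 44.2 CPM in TAFE4_tam, 103 CPM in FE4, 64.2 CPM in TAFE3_tam, 124 CPM in TAFE3_oil and 41.7 CPM in FE3.

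**Figure D3:**
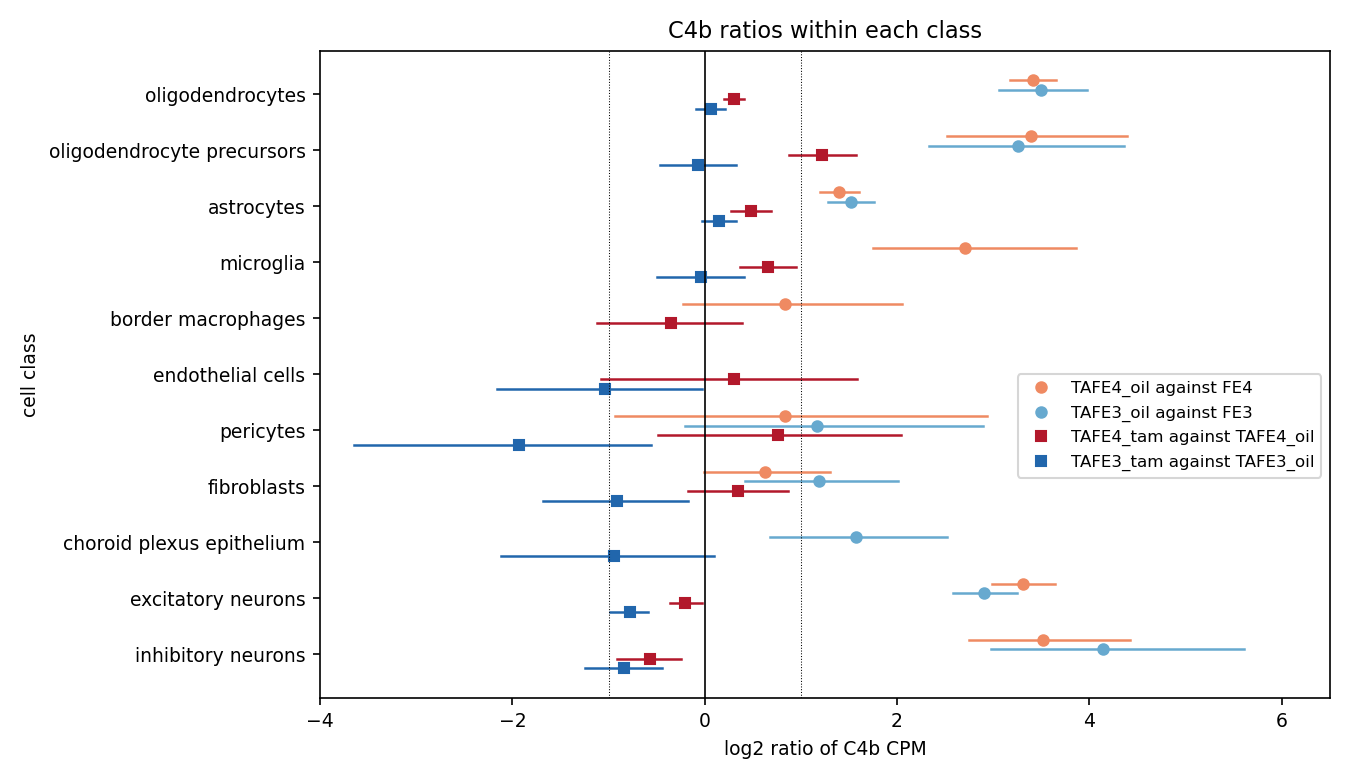
log2 ratio of C4b CPM within each class, with circles for TAFE oil against FE, squares for tamoxifen against oil and bars for exact 95% intervals; dotted lines mark log2 ratios of -1 and 1, and comparisons with under 20 nuclei or under 3 UMIs in a library are not drawn. Oligodendrocyte ratios of 3.41 and 3.50 for oil against FE stand right of the astrocyte ratios of 1.4 and 1.52, and neuronal ratios rest on the low levels given in the text.

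With tamoxifen C4b in oligodendrocytes, astrocytes, microglia and precursors did not differ from oil beyond counting error on the APOE3 background and was higher on the APOE4 background, while vascular classes on APOE3 were lower. For TAFE4_tam against TAFE4_oil the C4b log2 ratio was 0.30 (0.20 to 0.41) in oligodendrocytes, 0.48 (0.27 to 0.69) in astrocytes, 0.66 (0.37 to 0.95) in microglia and 1.22 (0.88 to 1.57) in precursors. For TAFE3_tam against TAFE3_oil it was 0.06 (-0.09 to 0.21) in oligodendrocytes, 0.15 (-0.03 to 0.33) in astrocytes, -0.04 (-0.50 to 0.41) in microglia and -0.07 (-0.46 to 0.33) in precursors. Each APOE4 interval lay above 0 and each APOE3 interval included it, but among these classes only precursors had a ratio that reached 1. In fibroblasts the ratio was 0.35 (-0.17 to 0.87) for TAFE4_tam against TAFE4_oil and -0.91 (-1.68 to -0.17) for TAFE3_tam against TAFE3_oil. In pericytes it was 0.76 (-0.49 to 2.04) for TAFE4_tam against TAFE4_oil and -1.93 (-3.65 to -0.56) for TAFE3_tam against TAFE3_oil, and in endothelial cells 0.30 (-1.08 to 1.58) and -1.04 (-2.16 to -0.03). Fibroblasts, pericytes and endothelial cells were thus lower in TAFE3_tam, from 5 UMIs in pericytes and 11 in endothelial cells of that library. In excitatory neurons, at their low level, the ratio was -0.20 (-0.36 to -0.03) for TAFE4_tam against TAFE4_oil and -0.78 (-0.98 to -0.59) for TAFE3_tam against TAFE3_oil. With at most 1% mitochondrial UMIs per nucleus the oligodendrocyte ratio of TAFE3_tam against TAFE3_oil was -0.95, and without the mitochondrial limit the astrocyte ratio of TAFE4_tam against TAFE4_oil was 0.22. The 6 liver genes summed to 87.0 CPM in oligodendrocytes of TAFE4_tam and 5.80 CPM in those of TAFE4_oil, and their part in the C4b ratios of TAFE4_tam was not tested.

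C4a shares nearly all of its sequence with C4b, so reads could be split between them. In oligodendrocytes C4a made up 0.287% of the UMIs of both genes in TAFE4_tam, 0.178% in TAFE4_oil, 2.33% in FE4, 0.132% in TAFE3_tam, 0 in TAFE3_oil and 2.27% in FE3. In excitatory neurons it made up 19.4% in TAFE4_tam, 14.8% in TAFE4_oil, 66.0% in FE4, 23.7% in TAFE3_tam, 14.6% in TAFE3_oil and 63.8% in FE3. Nearly all of the oligodendrocyte signal was thus counted to C4b, while the sparse UMIs of excitatory neurons in FE libraries went mostly to C4a. In inhibitory neurons C4a made up 30.0% in FE4 and 76.0% in FE3.

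The C1q chains were highest in microglia and border macrophages in all 6 libraries. Summed over C1qa, C1qb and C1qc, microglia held 7022 CPM in TAFE4_tam, 5914 CPM in TAFE4_oil, 5736 CPM in FE4, 6049 CPM in TAFE3_tam, 6228 CPM in TAFE3_oil and 2833 CPM in FE3. FE3 was the low library, and FE4, also without tau, lay near the tau libraries. The log2 ratio was 0.04 (-0.02 to 0.11) for TAFE4_oil against FE4, 1.14 (1.04 to 1.24) for TAFE3_oil against FE3 and 1.02 (0.91 to 1.13) for FE4 against FE3. The ratio of TAFE3_oil against FE3 depended on how nuclei were chosen. It was 0.59 without the mitochondrial limit, 0.86 with doublets kept and 0.23 with the doublet caller's own threshold in each library. The last was an alternative chosen after seeing the data. That threshold called 1 doublet in TAFE3_oil and 1579 in FE3, against 1082 and 959 left out in the main setting. These libraries were thus not filtered alike under it. FE3 microglia numbered 175, against 542 to 1554 in the other libraries, and had the lowest summed microglial markers (4926 CPM, against 5908 to 9296 CPM) and the highest summed markers of excitatory neurons (1494 CPM, against 601 to 915 CPM). Their part in the FE3 level was not tested.

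Each chain was at its lowest in FE3, but the chains did not follow each other in every comparison. C1qa stood at 3422 CPM in TAFE4_tam, 2898 CPM in TAFE4_oil, 2535 CPM in FE4, 2975 CPM in TAFE3_tam, 2974 CPM in TAFE3_oil and 1305 CPM in FE3. C1qb stood at 1842 CPM in TAFE4_tam, 1622 CPM in TAFE4_oil, 1423 CPM in FE4, 1578 CPM in TAFE3_tam, 1798 CPM in TAFE3_oil and 709 CPM in FE3. C1qc stood at 1758 CPM in TAFE4_tam, 1394 CPM in TAFE4_oil, 1778 CPM in FE4, 1496 CPM in TAFE3_tam, 1456 CPM in TAFE3_oil and 819 CPM in FE3. C1qc alone was lower in TAFE4_oil than in FE4, with a log2 ratio of -0.35 (-0.47 to -0.23) against 0.19 for both C1qa (0.10 to 0.28) and C1qb (0.07 to 0.31). C1qb alone was lower in TAFE3_tam than in TAFE3_oil beyond counting error, at -0.19 (-0.30 to -0.08), against 0.00 (-0.08 to 0.08) for C1qa and 0.04 (-0.08 to 0.16) for C1qc. C1qc made up 31% of C1q UMIs in FE4 microglia and 28.9% in FE3 microglia, against 23.4% to 25% in the tau libraries. UMIs of all chains were found together in 61.1% of microglial nuclei in TAFE4_tam, 59.1% in TAFE4_oil, 40.8% in FE4, 57.5% in TAFE3_tam, 60.4% in TAFE3_oil and 34.9% in FE3.

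Set against microglial markers in place of all UMIs, C1q separated tau from FE libraries with both alleles. In microglia there were 0.890 C1q UMIs per UMI of 13 microglial markers in TAFE4_tam, 1.00 in TAFE4_oil, 0.617 in FE4, 0.878 in TAFE3_tam, 0.946 in TAFE3_oil and 0.575 in FE3. The 4 tau libraries lay between 0.878 and 1.00, above both FE libraries. Against Ctss, a lysosomal protease and itself one of those markers, the order was different, with 4.92 C1q UMIs per Ctss UMI in TAFE4_tam, 5.40 in TAFE4_oil, 5.86 in FE4, 4.81 in TAFE3_tam, 5.03 in TAFE3_oil and 5.58 in FE3. Both FE libraries were then highest, so the reading of C1q depended on the gene it was set against. Per nucleus, microglia held 7.03 C1q UMIs in TAFE4_tam, 7.30 in TAFE4_oil, 5.41 in FE4, 6.74 in TAFE3_tam, 7.01 in TAFE3_oil and 5.30 in FE3, at median depths of 716.5 (FE4) to 1187 (FE3) UMIs.

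**Figure D4:**
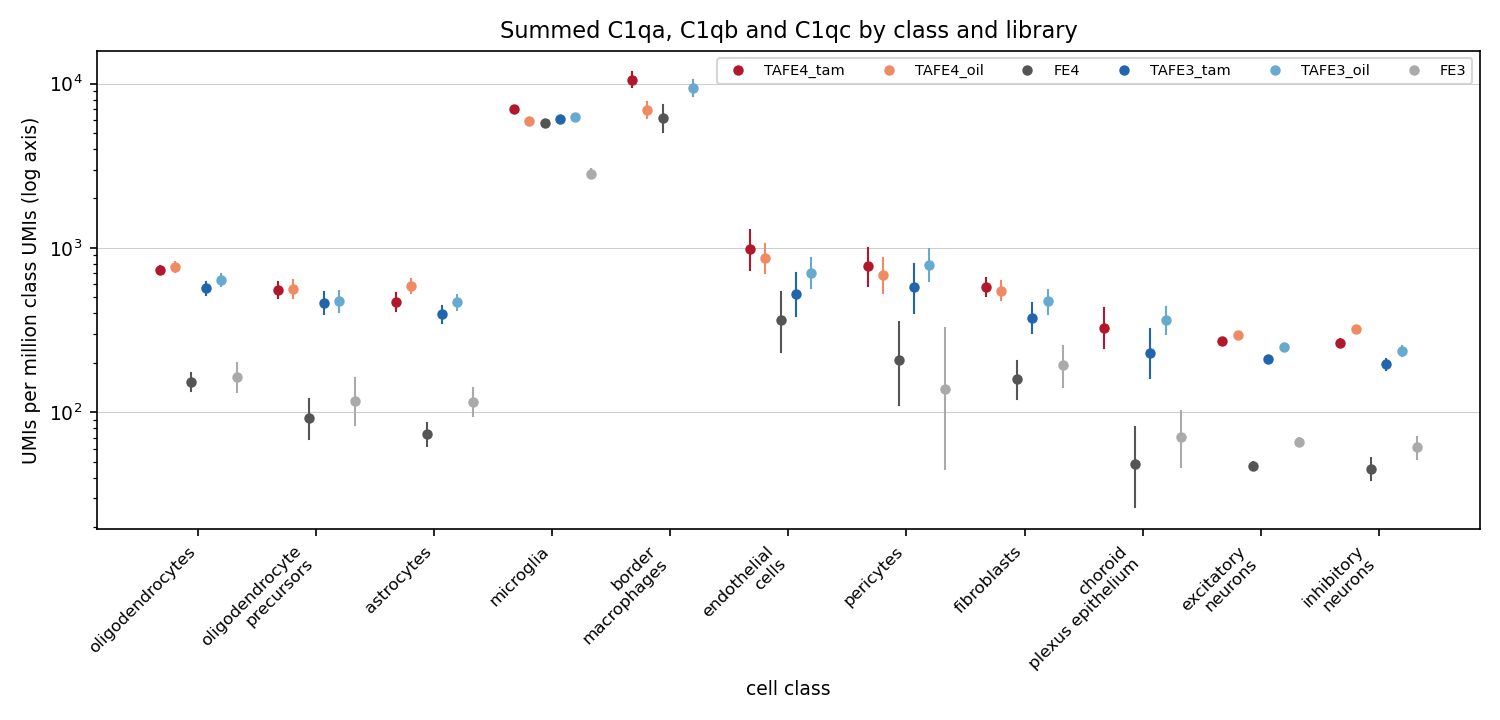
Summed level of C1qa, C1qb and C1qc (CPM, log axis) in each class and library, with exact Poisson 95% intervals; classes with under 20 nuclei in a library are not drawn. Microglia stood at 2833 to 7022 CPM and excitatory neurons at 47.3 to 294 CPM.

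C1q UMIs also appeared in nuclei of every other class. Excitatory neurons held 0.857 C1q UMIs per nucleus in TAFE4_tam, 0.987 in TAFE4_oil, 0.145 in FE4, 0.696 in TAFE3_tam, 0.8 in TAFE3_oil and 0.190 in FE3. Oligodendrocytes held 0.8 in TAFE4_tam, 0.944 in TAFE4_oil, 0.143 in FE4, 0.598 in TAFE3_tam, 0.755 in TAFE3_oil and 0.163 in FE3, close to neurons in each library. Astrocytes held 0.928 in TAFE4_tam, 1.33 in TAFE4_oil, 0.158 in FE4, 0.808 in TAFE3_tam, 1.08 in TAFE3_oil and 0.204 in FE3. The amount per nucleus thus followed the library more than the class. The neuronal C1q level was 3.84% of the microglial level in TAFE4_tam, 4.98% in TAFE4_oil, 0.825% in FE4, 3.50% in TAFE3_tam, 3.98% in TAFE3_oil and 2.32% in FE3. For the summed microglial markers the same measure was 3.26% in TAFE4_tam, 4.41% in TAFE4_oil, 0.881% in FE4, 3.08% in TAFE3_tam, 3.59% in TAFE3_oil and 2.03% in FE3. The neuronal shares of C1q and of the markers thus lay close together in each library, with C1q above the markers in all but FE4. Whether neurons expressed C1q was not tested. Per UMI of the markers, C1q stood at 0.529 to 1.14 in astrocytes and 0.518 to 1.19 in oligodendrocytes, against 0.575 to 1.00 in microglia. An unnamed cluster of 353 nuclei with markers of both microglia and oligodendrocytes held 2011 CPM of C1qa. The source of C1q UMIs in the other classes was not tested. C1qc made up 17.8% to 25.2% of C1q UMIs in excitatory neurons, against 23.4% to 31% in microglia. For C1qb the shares were 29.7% to 34.6% in excitatory neurons and 24.8% to 28.9% in microglia.

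**Figure D5:**
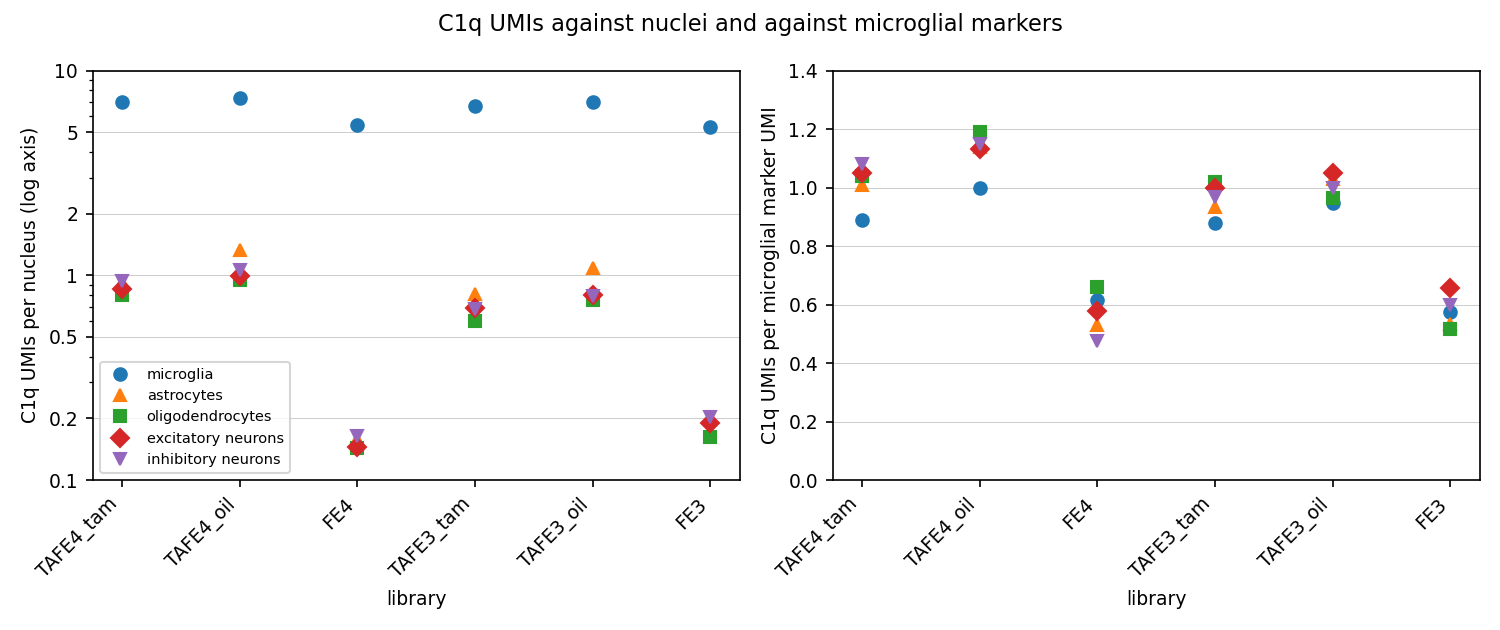
C1q UMIs per nucleus (left, log axis) and C1q UMIs per UMI of 13 microglial markers (right) in microglia and in 4 classes not known to make C1q, by library. Outside microglia the amount per nucleus was 0.143 to 0.204 UMIs in FE libraries and 0.598 to 1.33 UMIs in tau libraries; per marker UMI, each of these classes stood near microglia of its library.

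Border macrophages held 10586 CPM of C1q in TAFE4_tam, 6888 CPM in TAFE4_oil, 6156 CPM in FE4 and 9405 CPM in TAFE3_oil. The log2 ratio there was 0.16 (-0.15 to 0.49) for TAFE4_oil against FE4 and 0.62 (0.41 to 0.84) for TAFE4_tam against TAFE4_oil. In microglia the C1q ratio for tamoxifen was 0.25 (0.21 to 0.29) on APOE4 and -0.04 (-0.10 to 0.02) on APOE3, both small beside the range between settings, which ran from 0.11 to 1.37 for TAFE4_tam against TAFE4_oil and reached 0.49 for TAFE3_tam against TAFE3_oil. For TAFE4_oil against FE4 it ran from -0.87 to 0.43.

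C3, on which all complement pathways meet, was sparse, with 10 UMIs in all nuclei of FE3 and 149 in TAFE4_tam. These totals include the cluster led by liver genes. Pooled over libraries it held 39 C3 UMIs, and 43 of its 52 nuclei came from TAFE4_tam. In astrocytes 11 C3 UMIs were counted in TAFE4_tam (22.3 CPM), 12 in TAFE4_oil (18.5 CPM), 3 in FE4 (1.52 CPM), 8 in TAFE3_tam (11.2 CPM), 36 in TAFE3_oil (45.6 CPM) and 0 in FE3. All 4 tau libraries stood above both FE libraries, and the 3 UMIs of FE4 came from 1 nucleus of 919. C3 in astrocytes was at least 3.82 log2 units (2.16 to 6.17) higher in TAFE3_oil than in FE3, with 3 counts set for the 0 of FE3, and the log2 ratio was 3.61 (1.72 to 6.07) for TAFE4_oil against FE4. In TAFE3_oil the UMIs came from 17 of 341 astrocytes, with up to 8 in a nucleus. C3 in astrocytes was lower in TAFE3_tam than in TAFE3_oil, with a log2 ratio of -2.03 (-3.35 to -0.90), and did not differ beyond counting error between TAFE4_tam and TAFE4_oil, at 0.27 (-1.05 to 1.58). The ratio of TAFE4_oil against TAFE3_oil was -1.30 (-2.38 to -0.32), but 0.56 without the mitochondrial limit.

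In microglia 23 C3 UMIs were counted in TAFE4_tam, 17 in TAFE4_oil, 0 in FE4, 7 in TAFE3_tam, 9 in TAFE3_oil and 0 in FE3. The 0 in FE4 allows up to 7.22 CPM and that in FE3 up to 11.3 CPM, so only in TAFE4_tam (9.37 to 22.2 CPM) and TAFE4_oil (7.31 to 20.1 CPM) did the whole interval lie above the bound of the FE library with the same allele. Fibroblasts had 10 C3 UMIs in TAFE4_tam, 6 of them in 1 nucleus, 2 in TAFE4_oil, 0 in FE4, 1 each in TAFE3_tam and TAFE3_oil and 0 in FE3. C3 is also made by liver, and the 6 liver genes summed to 44.7 CPM in astrocytes of TAFE4_tam, 7.71 CPM in TAFE4_oil, 0 in FE4, 5.59 CPM in TAFE3_tam, 8.87 CPM in TAFE3_oil and 0 in FE3. In astrocytes the liver sum was highest in TAFE4_tam and C3 in TAFE3_oil, and whether liver RNA added to C3 in either library was not tested. In microglia the liver sum was 75.2 CPM in TAFE4_tam, 4.43 CPM in TAFE4_oil, 1.53 CPM in TAFE3_tam and 5.61 CPM in TAFE3_oil. The part of liver RNA in the C3 counts of TAFE4_tam was not tested.

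Among named classes, pooled over libraries, the receptor genes had their highest levels in microglia and border macrophages, at low counts. Excitatory neurons, with more nuclei, also held C3ar1 UMIs, at 0.678 to 3.83 CPM by neuron type and library. C3ar1 had 82 UMIs in microglia of TAFE4_tam (52.7 CPM), 57 in TAFE4_oil (42.1 CPM), 10 in FE4 (19.6 CPM), 20 in TAFE3_tam (30.6 CPM), 51 in TAFE3_oil (47.7 CPM) and 4 in FE3 (12.2 CPM). The tau libraries were all above the FE libraries, and the log2 ratio was 1.10 (0.12 to 2.24) for TAFE4_oil against FE4 and 1.96 (0.52 to 3.89) for TAFE3_oil against FE3. C5ar1 in microglia did not follow that split. It had 41 UMIs in TAFE4_tam (26.3 CPM), 22 in TAFE4_oil (16.2 CPM), 18 in FE4 (35.2 CPM), 7 in TAFE3_tam (10.7 CPM), 20 in TAFE3_oil (18.7 CPM) and 2 in FE3 (6.11 CPM). C5ar1 was lower in TAFE4_oil than in FE4, with a log2 ratio of -1.12 (-2.08 to -0.13), which became 0.16 with at most 1% mitochondrial UMIs. Border macrophages held 11 C5ar1 UMIs in 7 nuclei of TAFE4_tam and 0 to 3 in the other libraries.

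Among inhibitors, Serping1 was highest in fibroblasts and in vascular nuclei that could not be named, and showed no split by tau in either. In fibroblasts it stood at 137 CPM in TAFE4_tam, 130 CPM in TAFE4_oil, 183 CPM in FE4, 106 CPM in TAFE3_tam, 101 CPM in TAFE3_oil and 96.4 CPM in FE3. The Serping1 log2 ratio was -0.50 (-1.05 to 0.05) for TAFE4_oil against FE4, 0.07 (-0.74 to 0.90) for TAFE3_oil against FE3, 0.07 (-0.49 to 0.64) for TAFE4_tam against TAFE4_oil and 0.06 (-0.75 to 0.87) for TAFE3_tam against TAFE3_oil. These intervals all include 0, and they leave room for differences of up to about 1 on that scale. In the unnamed vascular nuclei Serping1 stood at 216 CPM in TAFE4_tam, 141 CPM in TAFE4_oil, 99.2 CPM in FE4, 104 CPM in TAFE3_tam, 126 CPM in TAFE3_oil and 188 CPM in FE3. FE3 lay above 3 of the 4 tau libraries there and FE4 below all 4. One subcluster of these nuclei held 464 Serping1 UMIs, at 270.0 CPM. Fibroblast subclusters differed among themselves, from 52.2 CPM of Serping1 in one to 371 CPM in another. Endothelial cells had 0 to 3 Serping1 UMIs per library and pericytes 0 to 5. In astrocytes Serping1 had 4 UMIs in TAFE4_tam, 13 in TAFE4_oil, 11 in FE4, 14 in TAFE3_tam, 20 in TAFE3_oil and 2 in FE3, or 8.12, 20.1, 5.57, 19.6, 25.3 and 2.15 CPM in the same order. The log2 ratio in astrocytes was 1.85 (0.57 to 3.15) for TAFE4_oil against FE4. The intervals of TAFE3_oil (15.5 to 39.1 CPM) and FE3 (0.260 to 7.76 CPM) did not overlap.

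Cd55 was counted in few UMIs per class and library. In fibroblasts it had 14 UMIs in TAFE4_tam, 2 in TAFE4_oil, 17 in FE4, 6 in TAFE3_tam, 4 in TAFE3_oil and 3 in FE3. In excitatory neurons Cd55 stood at 2.65 CPM in TAFE4_tam, 3.44 CPM in TAFE4_oil, 2.16 CPM in FE4, 1.99 CPM in TAFE3_tam, 1.46 CPM in TAFE3_oil and 3.77 CPM in FE3. Its log2 ratio there was 0.67 (0.14 to 1.2) for TAFE4_oil against FE4 and -1.37 (-2.08 to -0.70) for TAFE3_oil against FE3, in opposite directions. This class pools neuron types whose mix differed between libraries. For TAFE4_oil against FE4 Cd55 stood at 5.26 against 1.66 CPM in dentate granule neurons. In CA2 or CA3 neurons it stood at 0 against 1.53 CPM, and in other excitatory neurons at 3.57 against 2.77 CPM. TAFE3_oil was below FE3 in each type, at 0.547 against 2.31, 0.489 against 3.7 and 1.73 against 4.57 CPM in the same order. The dentate granule and CA2 or CA3 levels rest on 0 to 18 UMIs. Neither tau nor FE libraries were uniformly higher.

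Counted together, members and other complement genes were taken in a class if they had at least 20 UMIs over both libraries, at least 3 CPM in either and a class level no lower than in all other nuclei. The share of all genes past the same fold, given beside the first count in each comparison, was taken without the last condition. In microglia 5 of 6 members counted were higher in TAFE3_oil than in FE3 (C1qa, C1qb, C4b, C3ar1 and C5ar1), where 10.5% of all genes were, and 2 of 6 were higher in TAFE4_oil than in FE4 (C4b and C3ar1), where 10.7% of all genes were. C5ar1 was lower in that second comparison, in which 3.55% of all genes were lower. C4b, C3ar1 and C5ar1 in microglia passed the filter on UMIs only through TAFE3_oil in the first comparison. C4b and C3ar1 passed it only through TAFE4_oil in the second. They are high in those libraries, so their direction was largely fixed by the filter. Microglial C4b was also close to the neuronal amount per nucleus in TAFE3_oil and FE3. The members' median log2 ratio was 0.19 for TAFE4_oil against FE4 (0.12 over all genes) and 1.27 for TAFE3_oil against FE3 (0.05 over all genes). In astrocytes both members counted for TAFE4_oil against FE4 (C4b and Serping1) were higher, against 10.1% of all genes, and all 3 counted for TAFE3_oil against FE3 (C3, C4b and Serping1), against 6.08%. C3 and Serping1 passed the filter on UMIs only through TAFE3_oil, where they are high, so their direction was largely fixed by it, and with at least 100 UMIs asked for only C4b is counted in either comparison. In oligodendrocytes 4 of 4 members were higher in each comparison (C1qa, C1qb, C1qc and C4b), where 8.86% of all genes were higher in TAFE4_oil than in FE4 and 4.27% in TAFE3_oil than in FE3. The C1q chains among these 4 were close to the neuronal amount per nucleus given above. C1qc made up 18.8% of the 101 C1q UMIs in FE3 oligodendrocytes, which is under 20 UMIs. For TAFE3_oil against FE3 C1qc thus passed the filter on UMIs only through TAFE3_oil, where it is high. Its direction there was not free of the filter.

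With tamoxifen few members passed the fold. In microglia 0 of 7 did for TAFE4_tam against TAFE4_oil, where 7.39% of all genes passed it in either direction, and 0 of 6 for TAFE3_tam against TAFE3_oil, where 4.18% did. In astrocytes 0 of 2 did for TAFE4_tam against TAFE4_oil (6.82% of all genes), and 1 of 3, the lower C3, for TAFE3_tam against TAFE3_oil (4.53%). In oligodendrocytes 1 of 5, a lower C3 with 9 UMIs in TAFE4_tam and 11 in TAFE4_oil, did on APOE4 (5.26%), and 0 of 4 on APOE3 (3.89%).

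Other genes of the pathway behaved less uniformly than C4b. In microglia 2 of 10 were higher in TAFE4_oil than in FE4 (Clu and Itgax), where 10.7% of all genes were, and 3 were lower (Csmd3, Itgam and C5ar2), where 3.55% were. For TAFE3_oil against FE3 3 of 9 were higher (Clu, Itgb2 and Itgax), where 10.5% of all genes were. Itgax, the alpha chain of complement receptor 4, stood at 123 CPM in TAFE4_tam, 102 CPM in TAFE4_oil, 3.92 CPM in FE4, 126 CPM in TAFE3_tam, 87.9 CPM in TAFE3_oil and 6.11 CPM in FE3. Each FE level rests on 2 UMIs, and the tau libraries stood far above them. Itgax thus passed the filter on UMIs only through the TAFE oil libraries, where it is high. Itgam, the alpha chain of complement receptor 3, stood at 267 CPM in TAFE4_tam, 151 CPM in TAFE4_oil, 321 CPM in FE4, 243 CPM in TAFE3_tam, 165 CPM in TAFE3_oil and 156 CPM in FE3, with no split by tau.

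Clu, which encodes clusterin, a fluid-phase inhibitor of the terminal complex, was the only other gene counted as higher in astrocytes, 1 of 5 in each comparison of TAFE oil with FE, where 10.1% of all genes were higher on APOE4 and 6.08% on APOE3. Its astrocyte level was 2817 CPM in TAFE4_tam, 2985 CPM in TAFE4_oil, 1468 CPM in FE4, 3208 CPM in TAFE3_tam, 2916 CPM in TAFE3_oil and 1347 CPM in FE3. The log2 ratio of Clu was 1.02 for TAFE4_oil against FE4 and 1.11 for TAFE3_oil against FE3. In oligodendrocytes 0 of 5 other genes were higher in either comparison (8.86% of all genes on APOE4 and 4.27% on APOE3), and Clu was lower in TAFE4_tam than in TAFE4_oil, at 259 CPM against 533 CPM. C1ra and C1s1, the proteases that act with C1q, had at most 5 UMIs per library in astrocytes, oligodendrocytes or fibroblasts.

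The genes whose levels most resembled those of C4b and C1q were sought over 73 units of class and library with at least 50 nuclei, from 13 classes, by Pearson correlation of log2(CPM + 1). Units of 1 library share free RNA and depth, so these values are descriptions. Closest to C4b were Cryab (0.851), S100a6 (0.849), Cd63 (0.836), Lap3 (0.834) and Cd9 (0.828). Among the genes closest to the C1q sum were Trem2 (0.975), Ctss (0.973), Ctsz (0.93) and Cd68 (0.928), of which Trem2 and Ctss were also used as microglial markers. Closest to C3 was Mx1, at 0.59.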

How the data were processed

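Counts of UMIs per gene and nucleus were deposited by the authors, 1 matrix per library. Per the file headers the pipeline was Cell Ranger 3.1.0, and the submitters' processing notes name mm10. Labels name both 3′ end sequencing and 5′ kits. From these counts, nuclei with at least 500 UMIs, 300 genes and at most 5% mitochondrial UMIs were kept, and those with the highest scrublet scores were left out as doublets at a rate of 0.8% per 1000 nuclei. Nuclei were clustered with scanpy 1.11.5 (2000 variable genes, 30 principal components, 15 neighbours, Leiden resolution 1), with complement genes kept out of the variable genes and of the markers, and 32 clusters were named from marker lists. A cluster that could not be named stayed unnamed.

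UMIs were summed per class and library. Ratios were computed where both libraries held at least 20 nuclei, and counts under 3 were set to 3. The computation of the ratios was checked on simulated counts. Intervals were computed with scipy 1.17.1 and TMM factors with edgeR 4.0.16. All 9 members were described in every class. Other complement genes were named where they had the largest ratios of the same sign in both comparisons of TAFE oil with FE, up to 6 per class, with Clu, Itgam, Itgb2, C1ra and C1s1 added. Some genes that this rule allows are not reported here. The members and lists were chosen with earlier results of these data known, and the list of liver genes after a cluster led by them was seen. Libraries held 39050503 to 49083723 UMIs, and nothing says whether a library pools animals.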

Additional observations from a re-analysis of the deposited data

Results flagged for a closer look

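C1q in microglia had log2 ratios of opposite sign between alleles with and without tau, which rested on FE3 and on the choice of nuclei. The log2 ratio of the C1q sum was -0.07 for TAFE4_oil against TAFE3_oil and 1.02 for FE4 against FE3, and that of C1qb was -0.15 and 1.01 in the same comparisons. With the doublet caller's own threshold, the C1q sum in microglia was 0.24 for TAFE4_oil against TAFE3_oil and 0.04 for FE4 against FE3. C1qb in microglia was 0.15 for TAFE4_oil against TAFE3_oil and -0.01 for FE4 against FE3 with that threshold. It called 703 doublets in TAFE4_oil, 1 in TAFE3_oil, 619 in FE4 and 1579 in FE3, so libraries were not filtered alike. C1qc in microglia had a log2 ratio of -0.35 for TAFE4_oil against FE4 and 0.83 for TAFE3_oil against FE3, and C1qb had 0.18 for TAFE4_tam against TAFE4_oil and -0.19 for TAFE3_tam against TAFE3_oil. These differences were not tested, since each rests on single libraries.

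Outside microglia the C1q sum also changed sign between alleles. For TAFE4_oil against TAFE3_oil its log2 ratio was 0.33 in astrocytes, 0.25 in excitatory neurons and 0.44 in inhibitory neurons. For FE4 against FE3 it was -0.66 in astrocytes, -0.48 in excitatory neurons and -0.43 in inhibitory neurons. C1q in excitatory neurons was 0.825% to 4.98% of the microglial level, and the differences were not tested.

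Cd55 in excitatory neurons had a log2 ratio of 0.67 for TAFE4_oil against FE4 and -1.37 for TAFE3_oil against FE3, and 1.24 for TAFE4_oil against TAFE3_oil and -0.80 for FE4 against FE3. These differences were not tested, and each pooled level was under 4 CPM. The mix of neuron types differed between libraries, and for TAFE4_oil against FE4 the types went both ways, as given above.

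The unnamed cluster of 52 nuclei led by liver genes, which enters no comparison, held 178 CPM of C3 (127 to 244), 512 CPM of C4b (422 to 616) and 201 CPM of Serping1 (146 to 270). Of its nuclei 43 came from TAFE4_tam.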

How the results depend on the processing

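No paired analysis was possible because each group had 1 library, and leaving out a library would leave a group empty. Of 158 alternative values for the main comparisons 119 stayed within the limits set, 38 moved and 1 reversed; of 3354 for single genes 3143 stayed, 201 moved and 10 reversed. The doublet caller's own threshold was an alternative chosen after seeing the data, and it called from 1 doublet in TAFE3_oil to 2090 in TAFE4_tam. Causes were not tested unless given.

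C4b in oligodendrocytes had a log2 ratio of 3.71 with at least 1000 UMIs and 3.17 with TMM factors for TAFE4_oil against FE4, and -0.95 with at most 1% mitochondrial UMIs for TAFE3_tam against TAFE3_oil. C4b in astrocytes had 1.74 without the mitochondrial limit, 1.16 with TMM and 1.69 with the caller's own threshold for TAFE4_oil against FE4. For TAFE3_oil against FE3 it had 1.76 with doublets kept and 1.2 with the own threshold. With tamoxifen it had 0.22 without the mitochondrial limit on APOE4 and 0.40 with the own threshold on APOE3. Shares of nuclei with C4b, thinned to 1000 UMIs, were 47.0%, 34.2%, 18.1%, 41.0%, 39.7% and 18.4% in astrocytes of TAFE4_tam, TAFE4_oil, FE4, TAFE3_tam, TAFE3_oil and FE3, and 64.2% in oligodendrocytes of TAFE4_tam.

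The C1q sum in microglia had, for TAFE4_oil against FE4, 0.23 with at least 1000 UMIs, 0.19 without the mitochondrial limit, -0.87 with at most 1%, 0.38 with doublets kept, -0.02 with the neuronal level taken off and 0.43 with the own threshold. For TAFE3_oil against FE3 it had 1.00, 0.59, 0.86 and 0.23 with at least 1000 UMIs, without the mitochondrial limit, with doublets kept and with the own threshold. For TAFE4_tam against TAFE4_oil it had 0.47 with at least 1000 UMIs, 0.11 without the mitochondrial limit, 1.37 with at most 1%, 0.12 with doublets kept and 0.43 with the own threshold. For TAFE3_tam against TAFE3_oil it had 0.03 without the mitochondrial limit and 0.49 with the own threshold.

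C3 in microglia had -0.55 for TAFE4_oil against FE4 with at least 1000 UMIs, where the 0 of FE4 is set to 3 counts over fewer nuclei, and -0.83 for TAFE4_tam against TAFE4_oil with at most 1% mitochondrial UMIs. C3 in astrocytes had 0.56 for TAFE4_oil against TAFE3_oil without the mitochondrial limit. C5ar1 in microglia had 0.16 for TAFE4_oil against FE4 with at most 1%, and -0.28 for TAFE3_oil against FE3 with the own threshold, under which C1qb in microglia had -0.01 for FE4 against FE3. In inhibitory neurons, with the level of excitatory neurons taken off, the C1q sum, C1qa, C1qb and C1qc each had -0.47 for TAFE3_oil against FE3. Serping1 there had -0.50 for TAFE4_oil against FE4 and -0.03 for TAFE4_tam against TAFE3_tam. In these cases nothing was left above the neuronal level, and both libraries were set to 3 counts. The values therefore give the ratio of class totals only and say nothing on the genes, although they are counted as reversed. With at least 100 UMIs asked for, 5 complement genes were higher in microglia and 2 in astrocytes for TAFE3_oil against FE3, and without a filter 8 were higher in astrocytes for TAFE4_oil against FE4. Ratios that lacked 20 nuclei in a library, or had under 3 UMIs in both, were not run. Of these, 29 were with at least 1000 UMIs and 253 with at most 1% mitochondrial UMIs.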
